A study of Mus musculus with 10 samples.

Results

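Twist2, Prrx1, Trps1 and Hmga2 encode regulators of transcription and chromatin that are associated with the mesenchymal state. They were chosen by name, with earlier results of these data known. Every row for them was taken from 10 deposited tables of intronic polyadenylation (IPA). At such a site the transcript is cut and polyadenylated inside an intron, upstream of the gene's last exon. The 4 genes had 17 of 2311 rows and 9 of 2059 distinct sites, among 1453 genes listed. Trps1 had 7 rows, Hmga2 had 5, Twist2 had 4 and Prrx1 had 1. The study used 3′-end sequencing of cultured mouse mammary tumour lines and compared metastatic with non-metastatic lines. The labels call the lines 67NR and 168FARN non-invasive and the lines 4T07 and 4T1 invasive. A further group, 4T1-U1-ASO, was 4T1 treated with an antisense morpholino to U1 small nuclear RNA, carried by the reagent Endo Porter. Each of the 5 groups had 2 libraries, and the labels give no genotype or strain. The series design calls the control of the morpholino mock-transfected, while the labels of the 4T1 libraries name no treatment. No label names separate cultures for the libraries of a group, so the p-values below reflect the spread between libraries only, and that spread may be technical.

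Twist2 is a basic helix-loop-helix factor that binds E-boxes in DNA, and Prrx1 is a paired-type homeobox factor of limb, craniofacial and other mesenchyme. Both can drive epithelial cells toward a mesenchymal state. Trps1 is a GATA-type zinc-finger protein that acts mainly as a repressor in cartilage, hair follicle and mammary epithelium. Hmga2 is an architectural protein with AT-hook domains, abundant in embryonic and tumour cells, that bends AT-rich DNA and helps other factors to assemble. A transcript that ends at an IPA site lacks the exons downstream of it. U1 small nuclear RNA recognises 5′ splice sites and also restrains cleavage and polyadenylation within introns.

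Promoter windows are shown for Twist2, whose last-exon reads were nearly lost in 2 lines, and for Hmga2, whose last-exon reads were kept in all lines, so that genes with contrasting last-exon reads stand side by side. Each is the 250 bases before the gene start in the RefSeq table of GRCm38.p6, a build other than that of the tables. Capitals mark GGGCGG or CCAAT on either strand. Twist2 lies on chromosome 1 from 91801211 to 91801460 on the plus strand, and Hmga2 on chromosome 10 from 120476470 to 120476719 on the minus strand.

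Twist2: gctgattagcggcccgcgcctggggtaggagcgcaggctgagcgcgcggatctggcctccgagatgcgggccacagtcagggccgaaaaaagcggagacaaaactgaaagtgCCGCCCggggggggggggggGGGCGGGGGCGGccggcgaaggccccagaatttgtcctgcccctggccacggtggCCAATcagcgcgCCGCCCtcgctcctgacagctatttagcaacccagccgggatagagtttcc

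Hmga2: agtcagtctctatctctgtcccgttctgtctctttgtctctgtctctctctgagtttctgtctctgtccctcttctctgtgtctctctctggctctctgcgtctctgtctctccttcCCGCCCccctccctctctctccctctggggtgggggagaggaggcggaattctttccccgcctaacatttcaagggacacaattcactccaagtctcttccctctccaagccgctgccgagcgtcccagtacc

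The Twist2 window held 4 matches to GGGCGG, which do not overlap each other, and 1 to CCAAT. The Hmga2 window held 1 match to GGGCGG and no CCAAT. Among 32851 RefSeq windows of the same length, 32.7% held the first of these motifs and 33.9% the other. The E-box pattern CANNTG had no match in the windows of Twist2, Prrx1 or Hmga2, while 66.2% of all windows held it. The same was true of the TATA-box letters TATAAA, which 12.4% of all windows held. Of the 4 genes, 3 had a window in the table. GC content was 68.8% for Twist2, 56.4% for Hmga2 and 47.6% for Prrx1, beside a median of 52.4% over all windows. These matches are letters in a window and were not tested for binding.

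Peak lists held between 1427728 reads, for a 67NR replicate 2 list that covers 10 chromosomes, and 3347776 reads. The 2 libraries of each group differed beyond counting noise. They differed most for 4T1, with a chi-square of 22832 over 1101 genes, beside 2825 over 1066 genes in 4T1-U1-ASO. It was 934 over 107 genes in 67NR, 1049 over 253 in 168FARN and 630 over 331 in 4T07. For its number of genes, 67NR came next after 4T1. The tables hold normalized reads for each site and its last exon, from which whole reads were recovered. Usage is the percentage of site reads among site and last-exon reads of a library. Ratios below use the authors' normalized values within 1 table. Intervals and limits cover counting error only, since reads amplified by PCR without molecular identifiers are not independent molecules.

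At all 17 rows the authors' deposited table gives higher usage in the metastatic line or in 4T1-U1-ASO. Against 67NR, the rows were 3 in 4T1, where 23.8% of the 122 listed sites were higher, and 4 in 4T07, where 17.8% of 214 were higher. Against 168FARN, they were 3 in 4T1 and 4 in 4T07, where 24.7% of 85 and 20.4% of 329 sites were higher. In 4T1-U1-ASO against 4T1 there were 3 rows, all in Hmga2, where 87.6% of 1561 listed sites were higher. The comparisons of lines share libraries, so the rows of a gene do not repeat each other independently. The genes were chosen with earlier results of these data known, so their shared direction is not read as an excess.

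Usage can be higher because the site gained reads or because the last exon lost them. Site reads and last-exon reads were therefore tested separately with edgeR's quasi-likelihood test (adjusted p under 0.05 over the listed sites of a comparison). Site reads rose at 10 of 16 rows tested and fell at 1. The 10 were the Trps1 rows other than the 4T1 row against 168FARN (6 rows), the Hmga2 site of 4T07 against 67NR, and the 3 Hmga2 sites of 4T1-U1-ASO. Site reads rose at 17.2% of all sites in 4T1 and 12.6% in 4T07 against 67NR, and at 16.9% and 19.8% against 168FARN. In 4T1-U1-ASO against 4T1 they rose at 57.1%. These shares, and those below, are over sites of both directions of usage, while all 17 rows had higher usage. In the comparisons of lines, in that order, 21, 27, 14 and 65 sites rose, beside 29, 38, 21 and 67 sites with higher usage. How many of these rises lay at sites with higher usage was not counted, so the 10 rows are not read as an excess. With DESeq2's Wald test 7 of the 16 rows passed in place of 11.

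Counted once for each gene and comparison, last-exon reads fell in 8 of 12 cases and rose in 1. The 8 were Twist2 in 4 comparisons, Hmga2 in both 4T07 comparisons, Prrx1 in 4T1 against 168FARN and Trps1 in 4T1 against 67NR. Last-exon reads fell at 26.2% of listed sites in 4T1 against 67NR, 18.2% in 4T07 against 67NR, 18.8% in 4T1 against 168FARN, 23.1% in 4T07 against 168FARN and 56.4% in 4T1-U1-ASO against 4T1. Twist2 and Prrx1 thus had last-exon loss with no rise at the site that passed. Trps1 had gain at its sites in 4T07 with no fall of the last exon that passed. Trps1 in 4T1 against 67NR and Hmga2 in 4T07 against 67NR had both changes, and Trps1 in 4T1 against 168FARN had neither pass.

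**Figure D1:**
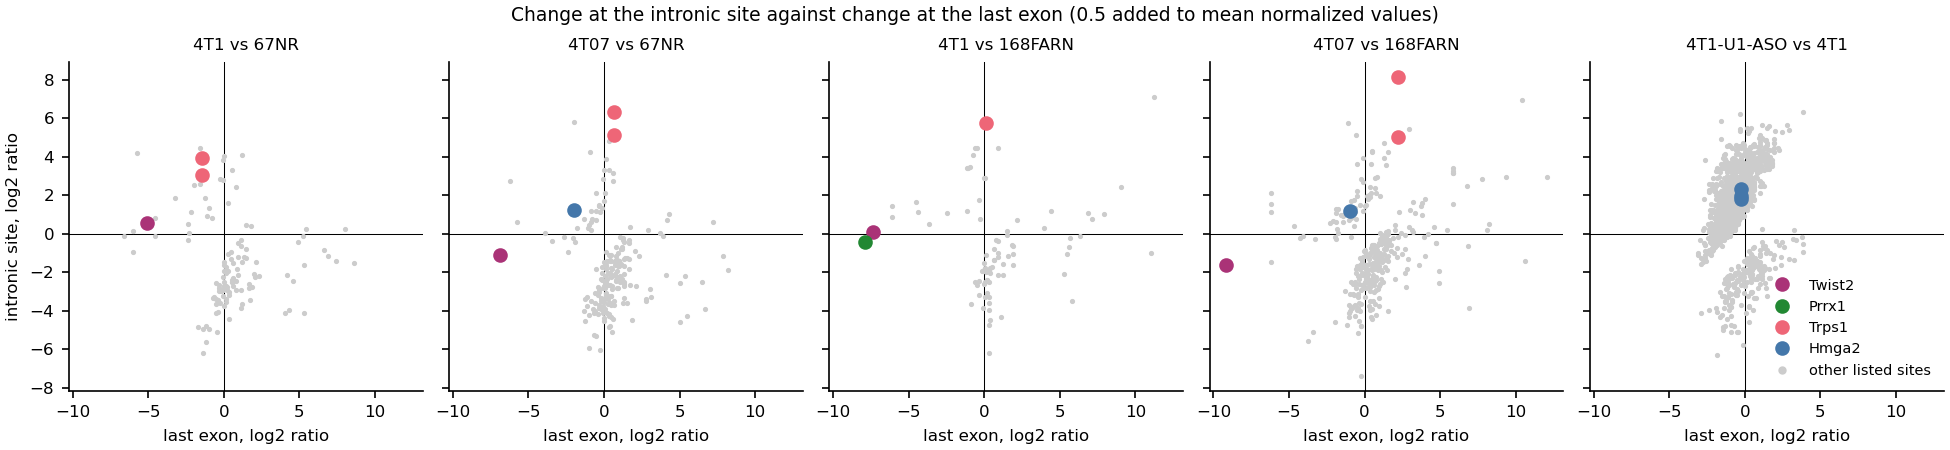
Log2 ratio of mean normalized reads at the intronic site (vertical axis) against that at the last exon (horizontal axis), with 0.5 added to each mean, for the sites listed in each of 5 comparisons; grey points are all other listed sites. Twist2 and Prrx1 lie at the left, near a site ratio of 0 in the 4T1 comparisons, and Twist2 lies below 0 in those of 4T07. Trps1 lies high, while the 3 Hmga2 sites of 4T1-U1-ASO lie within the main group of sites.

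Median log2 ratios over the rows of each comparison, with 0.5 added, mix genes that changed in different ways. For last-exon reads the median was -1.44 in 4T1 and -0.66 in 4T07 against 67NR, beside 0.16 and 0.39 over all listed sites. Against 168FARN it was -7.36 in 4T1, beside 0.31, and 0.60 in 4T07, beside 0.52, so the rows of that last comparison show no fall by their median. For site reads the median was 3.06 in 4T1 and 3.18 in 4T07 against 67NR, beside -2.10 and -2.17 over all listed sites, and 0.08 and 3.10 against 168FARN, beside -1.05 and -1.19. The site median of the rows stood above that of all listed sites in each comparison of lines. All of these rows had higher usage, while 17.8% to 24.7% of the listed sites did. That gap is thus nearly bound to arise and is not read as a trait of the 4 genes. For the 3 Hmga2 rows of 4T1-U1-ASO, the medians were 1.94 for site reads and -0.26 for last-exon reads, beside 1.49 and -0.66 over all 1561 sites.

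Twist2 had 1 listed site, on chromosome 1 from 93722535 to 93722802 on the plus strand of mm9, which the authors call intronic. It lay 21.2 kb upstream of the strongest 3′-end cluster found within 100000 bp downstream on that strand. The site had 3 and 6 reads in 67NR, 7 and 5 in 168FARN, 2 and 1 in 4T07 and 4 and 7 in 4T1. The last exon had 74 and 54 reads in 67NR, 309 and 293 in 168FARN, none in either 4T07 library and 2 and 0 in 4T1. Site reads were few in all 8 libraries. Those of 4T07 lay below those of 67NR and 168FARN, while those of 4T1 overlapped both. Site values lower in 4T07 without overlap were found at 79.4% of listed sites against 67NR and 65.0% against 168FARN. Only the last exon separated both metastatic lines from the others without overlap. Last-exon values that did not overlap and were lower in the metastatic line were found at 30.3% of listed sites in 4T1 and 24.3% in 4T07 against 67NR, and at 24.7% and 26.1% against 168FARN.

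Twist2 usage was 6.95% ± 4.32 in 67NR, 1.95% ± 0.380 in 168FARN and 83.3% ± 23.6 in 4T1 (SD, n = 2). In 4T07 it was 100% from 3 site reads in all, and with 0.5 reads added to each count it came to 79.2%. The authors' deposited table gives log2 fold changes in usage of 1.90 and 1.53 for 4T1 and 4T07 against 67NR (SE 0.51 and 0.46, adjusted p = 0.016 and 0.029). Against 168FARN the authors' deposited table gives 3.83 and 2.40 (SE 0.54 and 0.44, both adjusted p listed as 0.000).

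Twist2 last-exon reads were at least 191-fold lower in 4T07 than in 168FARN and at least 37.3-fold lower than in 67NR, with the absent reads set at 3 over the group. In 4T1 they were 234-fold lower than in 168FARN (95% interval 69.9 to 2099) and 46.7-fold lower than in 67NR (95% interval 13.8 to 425). All 4 falls passed by edgeR's quasi-likelihood test (adjusted p = 1.55e-06 and 9.25e-05 in 4T07, 1.7e-40 and 7.87e-10 in 4T1, in that order). They passed under every alternative run, including those that left out a library. In bulk RNA, fewer cells that express a gene and less RNA per cell cannot be told apart.

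Site reads of Twist2 did not pass in 4T1 against 67NR (ratio 1.52, edgeR adjusted p = 0.361), 4T1 against 168FARN (ratio 1.06, edgeR adjusted p = 0.84) or 4T07 against 67NR (2.52-fold lower, 95% interval 0.657 to 15.1, edgeR adjusted p = 0.133). In 4T1 against 168FARN the sign turned without 168FARN replicate 2 or 4T1 replicate 2. In 4T07 against 168FARN they fell, 3.73-fold (95% interval 1.03 to 21.2, edgeR adjusted p = 0.0372). In that comparison 58.4% of listed sites fell in the same way. That fall rested on 3 reads against 12 and did not pass with DESeq2 (adjusted p = 0.254), with TMM scaling (edgeR adjusted p = 0.0541) or without any of the 4 libraries (edgeR adjusted p between 0.0774 and 0.304). The higher usage of the Twist2 site was thus a loss of last-exon reads, with no gain of site reads measured in either line.

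Prrx1 had 1 row, in 4T1 against 168FARN, on chromosome 1 from 165187073 to 165187666 on the minus strand of mm9, 8.45 kb upstream of its downstream 3′-end cluster. At the site, 4T1 had 0 and 1 reads and 168FARN had 0 and 2. At the last exon, 4T1 had 2 and 0 reads and 168FARN had 371 and 525. The libraries of the lines overlapped at the site and stood far apart at the last exon.

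Prrx1 usage was 0.190% ± 0.268 in 168FARN and 50% ± 70.7 in 4T1 (SD, n = 2), the latter from libraries at 0% and 100% that held 3 reads together. The authors' deposited table gives a log2 fold change of 0.98 (SE 0.31, adjusted p = 0.098). Last-exon reads were 344-fold lower in 4T1 (95% interval 104 to 3122, edgeR quasi-likelihood test, adjusted p = 1.2e-48). The 3 site reads were under the minimum of 5, and tested with no filter on low reads they did not pass (edgeR adjusted p = 0.721). So few reads cannot show whether the Prrx1 site itself differed, and the difference measured in this row is that of the last exon.

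**Figure D2:**
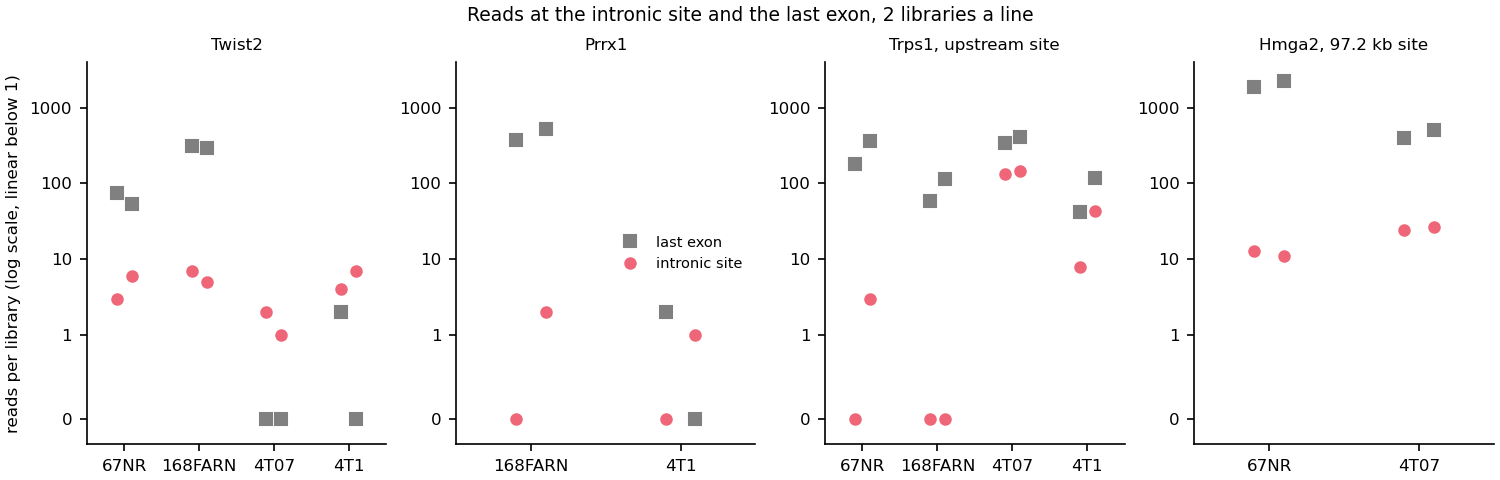
Reads recovered at the intronic site (circles) and the last exon (squares) in each library, on a log axis that is linear below 1, for the lines whose tables list the site. Last-exon reads are at 0 to 2 for Twist2 in 4T07 and 4T1 and for Prrx1 in 4T1. Trps1 has 132 and 145 site reads in 4T07, and Hmga2 has 24 and 27 in 4T07 with fewer last-exon reads than 67NR.

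Of 32 markers of epithelial cells, 2 were listed between lines, Spint2 and Cblc, and these moved the other way at the last exon. Spint2, an inhibitor of membrane serine proteases found in epithelia, had 5 and 0 last-exon reads in 67NR and none in 168FARN, while 4T07 had 730 and 849 and 4T1 had 963 and 965. Cblc, a ubiquitin ligase of epithelial tissues, had 55 and 50 in 4T1 and none in 67NR or 168FARN. Cblc was not listed in a comparison with 4T07. Last-exon reads were thus high in 4T1 for Spint2 and Cblc, and in 4T07 for Spint2 alone, where those of Twist2 were low. That direction was common. Last-exon values higher in the metastatic line without overlap were found at 45.9% of listed sites in 4T1 and 56.5% in 4T07 against 67NR. Against 168FARN the shares were 55.3% and 62.0%. The part of Spint2 and Cblc in the result was not tested. Of the epithelial markers, Cdh1 alone was listed in 4T1-U1-ASO against 4T1, with 800 and 952 last-exon reads in 4T1. None of 10 markers of immune, endothelial, fat or glial cells was listed in any comparison, and levels of unlisted genes were not analysed here.

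Trps1 had 2 listed sites on chromosome 15, on the minus strand of mm9, separated by 304 bp. The upstream site, from 50554556 to 50556845, was listed in 4 comparisons of lines, and the downstream site, from 50553878 to 50554251, in 3. They lay 61.9 kb and 61.2 kb upstream of the downstream 3′-end cluster. The upstream site had 0 and 3 reads in 67NR, none in 168FARN, 132 and 145 in 4T07 and 8 and 43 in 4T1. The downstream site had no reads in 67NR or 168FARN, 18 and 13 in 4T07 and 1 and 6 in 4T1. In these table reads every metastatic library exceeded every non-metastatic library at both sites, most of all in 4T07. The authors' filtered peak lists hold fewer reads in 1 of the 4T07 libraries at each site, with 11 and 145 at the upstream site and 18 and 0 at the downstream site. In the lists of 4T1 there were 3 and 6 at the upstream site and none at the downstream site, and those of 67NR and 168FARN held none at either. Usage of the upstream Trps1 site from the lists alone was 17.6% ± 19.3 in 4T07 and 13.2% ± 9.63 in 4T1 (SD, n = 2), so the close agreement of the 4T07 libraries is found in the tables only. Site values higher in the metastatic line without overlap were found at 19.7% of listed sites in 4T1 and 15.0% in 4T07 against 67NR, and at 25.9% and 22.5% against 168FARN.

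Usage of the upstream Trps1 site was 26.8% ± 1.19 in 4T07 and 21.2% ± 7.34 in 4T1, against 0.412% ± 0.583 in 67NR (SD, n = 2). In 168FARN, 0 of 174 reads allow a usage of up to 1.72%. The downstream site was used at 4.01% ± 1.35 in 4T07 and 3.54% ± 1.72 in 4T1 (SD, n = 2). No read of it among 540 in 67NR allows up to 0.556%. In order, the upstream site was used most in 4T07 and 4T1, which overlapped, and least in 67NR and 168FARN, where 1 of 4 libraries had any read of it.

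**Figure D3:**
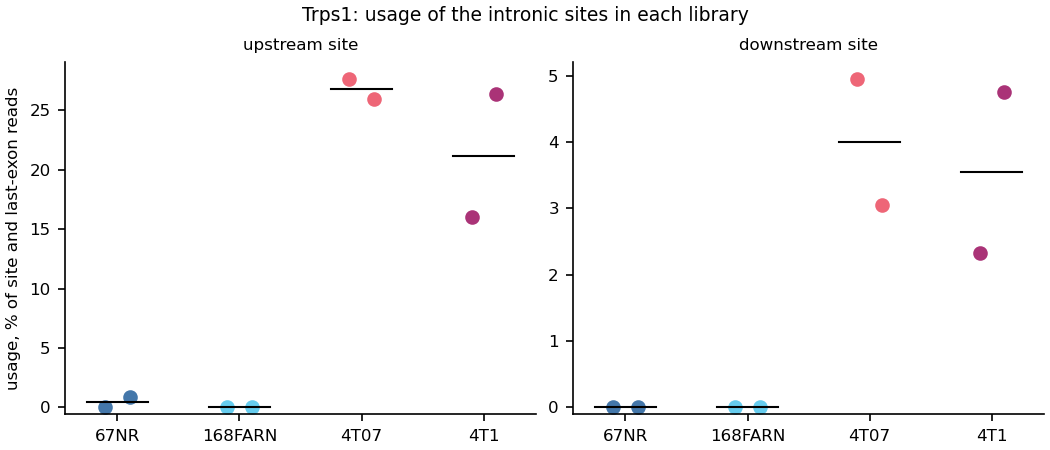
Usage of the upstream (left) and downstream (right) Trps1 site in each library, as a percentage of site and last-exon reads; points are libraries and lines are means of 2. Both sites are used in 4T07 and 4T1, with a mean of 26.8% and 21.2% upstream, and are near 0 in 67NR and 168FARN.

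For the upstream Trps1 site the authors' deposited table gives log2 fold changes of 2.03 and 3.84 for 4T1 and 4T07 against 67NR (SE 0.52 and 0.50), with an adjusted p of 0.012 and of 0.000 as listed. Against 168FARN the authors' deposited table gives 1.96 and 3.58 (SE 0.53 and 0.55), with an adjusted p of 0.021 and of 0.000 as listed. For the downstream site it gives 1.57, 2.30 and 1.65 for 4T1 and 4T07 against 67NR and 4T07 against 168FARN (authors' deposited table, adjusted p = 0.075, 0.002 and 0.075).

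Upstream site reads were at least 96.5-fold higher in 4T07 than in 168FARN and 108-fold higher than in 67NR (95% interval 35.6 to 513). These rises passed under every alternative run (adjusted p = 1.48e-45 and 1.24e-37 by edgeR's quasi-likelihood test). In 4T1 they were 20.7-fold higher than in 67NR (95% interval 6.91 to 107, edgeR adjusted p = 0.00296). Without 4T1 replicate 2 the call was lost (edgeR adjusted p = 0.0697). Against 168FARN they were at least 19.1-fold higher, which did not pass (edgeR adjusted p = 0.0629), while DESeq2 gave an adjusted p of 0.000505 and TMM scaling in edgeR 0.0293. It also passed in edgeR without either 168FARN library or without 4T1 replicate 1 (adjusted p between 0.0144 and 0.0248). The 4T1 libraries, at 8 and 43 reads, differed more from each other than the 4T07 libraries did.

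Downstream site reads of Trps1 were at least 11.0-fold higher in 4T07 than in 168FARN and at least 12-fold higher than in 67NR (edgeR quasi-likelihood test, adjusted p = 9.58e-10 and 3.76e-09). In 4T1 they were at least 2.77-fold higher than in 67NR (edgeR adjusted p = 0.0304), from 7 reads in all. That rise did not pass with DESeq2 (adjusted p = 0.0864) or without either 67NR library (edgeR adjusted p = 0.0633 and 0.0677).

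The Trps1 last exon did not follow its sites. It had 179 and 361 reads in 67NR, 59 and 115 in 168FARN, 345 and 413 in 4T07 and 42 and 120 in 4T1. Last-exon reads were highest in 4T07 and 67NR, whose raw reads overlap, and lowest in 168FARN and 4T1, which also overlap. They rose 4.60-fold in 4T07 against 168FARN (edgeR quasi-likelihood test, adjusted p = 4.44e-05), a direction found at 54.4% of listed sites there. In 4T1 they fell 2.73-fold against 67NR (edgeR adjusted p = 4.83e-07) and had a ratio of 1.08 to 168FARN (edgeR adjusted p = 0.709), whose sign turned without 168FARN replicate 1 or 4T1 replicate 2. In 4T07 against 67NR the ratio was 1.61 and just missed the threshold (edgeR adjusted p = 0.0503). It passed with DESeq2 (adjusted p = 0.0375) and TMM scaling (edgeR adjusted p = 0.0135), and without each of the 4 libraries in turn. Without 67NR replicate 1 its log2 change was 0.28 and without 67NR replicate 2 it was 1.24, against 0.68 with all libraries. Trps1 was thus the member with gain at the site in 4T07 and no fall of the last exon. In 4T1 against 67NR both a gain at the sites and a fall at the last exon passed.

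Hmga2 had 5 listed sites on chromosome 10, on the minus strand of mm9, each in a single comparison. They are named here by their distance upstream of the downstream 3′-end cluster. The 97.2 kb site, from 119898460 to 119899060, was listed in 4T07 against 67NR, and the 77.3 kb site, from 119878551 to 119878848, in 4T07 against 168FARN. The other 3 were listed in 4T1-U1-ASO against 4T1: the 7.97 kb site from 119809253 to 119809884, the 81.8 kb site from 119883111 to 119883431 and the 108 kb site from 119909339 to 119909701.

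The Hmga2 last exon had 1867 and 2266 reads in 67NR, 785 and 1087 in 168FARN, 395 and 505 in 4T07, 617 and 979 in 4T1 and 990 and 982 in 4T1-U1-ASO. It stood highest in 67NR and lowest in 4T07, without overlap with any other group, and 168FARN overlapped 4T1. Unlike Twist2 and Prrx1, Hmga2 kept at least 395 last-exon reads in every library. Last-exon reads fell 4.04-fold in 4T07 against 67NR and 1.99-fold against 168FARN (edgeR quasi-likelihood test, adjusted p = 1.48e-05 and 0.000245).

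At the 97.2 kb site of Hmga2, reads were 13 and 11 in 67NR and 24 and 27 in 4T07, with no overlap. Usage was 5.40% ± 0.462 in 4T07 and 0.587% ± 0.147 in 67NR (SD, n = 2). The authors' deposited table gives a log2 fold change of 2.80 (SE 0.39, adjusted p listed as 0.000). Site reads rose 2.42-fold (edgeR quasi-likelihood test, adjusted p = 0.0019), less than the 4.04-fold fall at the last exon, and both calls held under every alternative run.

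At the 77.3 kb site, reads were 4 and 0 in 168FARN and 6 and 4 in 4T07, which overlap in the normalized values. In 168FARN the site was used at 0.253% ± 0.358, and in 4T07 at 1.14% ± 0.502 (SD, n = 2). The authors' deposited table gives a log2 fold change of 1.52 (SE 0.55, adjusted p = 0.093). Site reads had a ratio of 2.56 that did not pass (edgeR adjusted p = 0.132), except without 168FARN replicate 1 (edgeR adjusted p = 0.0413). Only the last exon of Hmga2 passed in that comparison with all libraries. The filtered peak lists held no reads of this site in 168FARN or 4T07, and 0 and 53 in 67NR.

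The 97.2 kb site of Hmga2 could be followed in the peak lists of all groups, because the lists held exactly the recovered reads in the 4 libraries where both exist. The lists gave 35 and 33 reads in 168FARN, 14 and 14 in 4T1 and 6 and 8 in 4T1-U1-ASO. Set against last-exon reads of the tables, usage was 3.61% ± 0.935 in 168FARN, 1.81% ± 0.572 in 4T1 and 0.705% ± 0.145 in 4T1-U1-ASO (SD, n = 2). The order was 4T07, 168FARN, 4T1, 4T1-U1-ASO and 67NR. The last pair overlapped and the others did not. In these values usage of that site did not divide the lines by metastatic ability, since 168FARN stood above 4T1. Table reads of the site exist for 4T07 and 67NR only, so the place of the other groups rests on the filtered lists. Such lists can hold too few reads. At the upstream Trps1 site in 4T1 they held 3 and 6, where the tables held 8 and 43. The order is therefore not established.

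The 3 sites listed for 4T1-U1-ASO had low usage in both groups. The 7.97 kb site of Hmga2 had 13 and 14 reads in 4T1-U1-ASO and 1 and 2 in 4T1. For the 81.8 kb site they were 12 and 9 against 0 and 4, and for the 108 kb site 12 and 10 against 2 and 1. In these recovered reads all libraries with the morpholino exceeded those of 4T1 at each site, as did 73.7% of all listed sites. The filtered peak lists of 4T1-U1-ASO held 13 and 14 reads at the 7.97 kb site. At the 81.8 kb site and at the 108 kb site they held 12 in replicate 1 and 0 in replicate 2. In the lists of 4T1 there were 2 and 0 at the 108 kb site and none at the others. Usage with the morpholino was 1.35% ± 0.0774, 1.05% ± 0.205 and 1.1% ± 0.134 (SD, n = 2). In 4T1 it was 0.183% ± 0.0297, 0.203% ± 0.288 and 0.213% ± 0.156 (SD, n = 2). Reads at 2 of these sites were also found without the morpholino. Peak lists of 67NR held 9 and 28 at the 7.97 kb site and 5 and 24 at the 108 kb site, and none at the 81.8 kb site. Set against last-exon reads of the tables, 67NR usage was 0.850% ± 0.524 at the 7.97 kb site and 0.658% ± 0.552 at the 108 kb site (SD, n = 2).

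The authors' deposited table gives log2 fold changes of 2.15, 1.61 and 1.90 for these Hmga2 sites, in that order (SE 0.66, 0.65 and 0.67, adjusted p = 0.019, 0.087 and 0.045). Site reads rose 6.19-fold (95% interval 1.85 to 31.0), 4.03-fold and 4.59-fold (95% interval 1.48 to 25.6) with the morpholino. The edgeR quasi-likelihood test gave an adjusted p of 0.00351, 0.0372 and 0.012. With DESeq2 the adjusted p was 0.0951, 0.233 and 0.158, so none passed. Without 4T1-U1-ASO replicate 1 or replicate 2 the 81.8 kb site (edgeR adjusted p = 0.231 and 0.0917) and the 108 kb site (edgeR adjusted p = 0.119 and 0.0638) were lost. So was the 81.8 kb site without 4T1 replicate 1 and with TMM scaling (edgeR adjusted p = 0.203 and 0.0727), and the 108 kb site without 4T1 replicate 2 (edgeR adjusted p = 0.113).

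Last-exon reads of Hmga2 had a ratio of 0.837 between 4T1-U1-ASO and 4T1, which did not pass (edgeR quasi-likelihood test, adjusted p = 0.18). Without 4T1 replicate 1 the ratio passed (edgeR adjusted p = 0.00311). The median log2 ratio of last-exon reads over all sites of that comparison was -0.66, beside -0.26 for Hmga2. With the morpholino, the recovered reads of Hmga2 thus held small gains at 3 sites, a direction shared by most listed sites. No fall of its last exon passed.

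**Figure D4:**
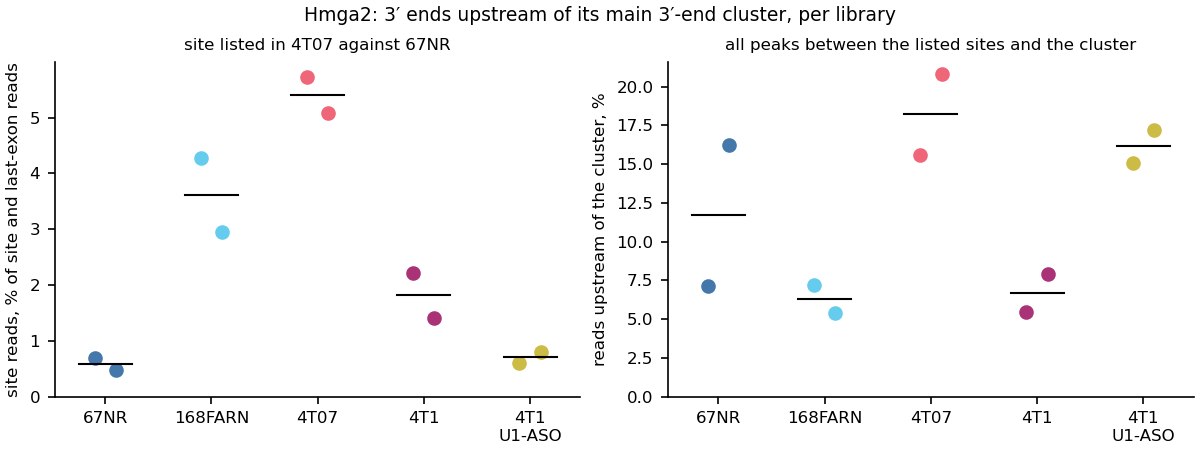
Left, reads of the 97.2 kb Hmga2 site as a percentage of site and last-exon reads in all 10 libraries, with site reads from the peak lists; right, percentage of Hmga2 peak reads that lie upstream of the downstream cluster. Points are libraries and lines are means of 2; the mean of 4T07 is highest in both panels, its libraries overlap those of 4T1-U1-ASO and 67NR at the right, and the 67NR libraries differ most from each other there.

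Peak lists also show all 3′ ends within Hmga2, not only the listed sites. From the most upstream listed site to the downstream cluster, the share of reads upstream of the cluster was 15.6% and 20.8% in 4T07 and 15.1% and 17.2% in 4T1-U1-ASO. It was 5.47% and 7.91% in 4T1, 7.20% and 5.38% in 168FARN, and 7.16% and 16.2% in 67NR. The morpholino and 4T07 libraries stood above those of 4T1 and 168FARN, and 67NR reached across both. The cluster held 254 and 377 reads in 4T07, so its share rests on fewer reads than the 1868 and 2268 of 67NR. Those cluster reads were 64.3% and 74.7% of the table's last-exon reads in 4T07 and 58.9% in 4T1-U1-ASO replicate 2, against at least 95.3% in the other libraries. With the table's last-exon reads in place of the cluster, the share was 10.6% and 16.4% in 4T07 and 15.1% and 10.9% in 4T1-U1-ASO, still above the 5.22% to 7.73% of 4T1 and 168FARN. The lists had been filtered by the authors, and a 0 in a list is not 0 reads: at the 48 site values also held by the tables, 32 were equal and 41 were within 5 reads.

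The downstream clusters give the level of each gene in the groups that no table covers, in reads per 1000000 reads on the 9 chromosomes complete in all lists (RPM). For Prrx1 the cluster held 481 and 735 reads in 67NR and 217 and 319 in 168FARN, and no peak was listed for it in 4T07, 4T1 or 4T1-U1-ASO. The mean level was 424 ± 139 RPM in 67NR and 210 ± 52.5 in 168FARN (SD, n = 2), groups that did not overlap. In 168FARN the cluster held 58.5% and 60.8% of the recovered last-exon reads, so this level is a partial one, and for 67NR no table gives last-exon reads of Prrx1. The Prrx1 site had 17 and 15 reads in 67NR, more than in any other library. So Prrx1 had listed reads at the site and the last exon in both 67NR libraries and in 168FARN replicate 2, at the last exon in 168FARN replicate 1, and at most 1 listed read in each library of the other groups.

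The Twist2 cluster held the same reads as the recovered last exon in 8 of 8 libraries, and no peak of it was listed in 4T1-U1-ASO, where the site had 5 and 1 reads. The Twist2 level was 236 ± 13.5 RPM in 168FARN and 44.2 ± 8.31 in 67NR (SD, n = 2). The highest line was therefore 168FARN for Twist2 and 67NR for Prrx1. Trps1 was at 246 ± 7.03 RPM in 4T07, 140 ± 64.0 in 67NR, 90.0 ± 28.8 in 4T1-U1-ASO, 44.7 ± 41.8 in 168FARN and 40.4 ± 41.7 in 4T1 (SD, n = 2). For Trps1 only 4T07 stood clear of the other groups. The Trps1 cluster held 28.6% to 83.5% of the recovered last-exon reads, so its level is also partial.

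**Figure D5:**
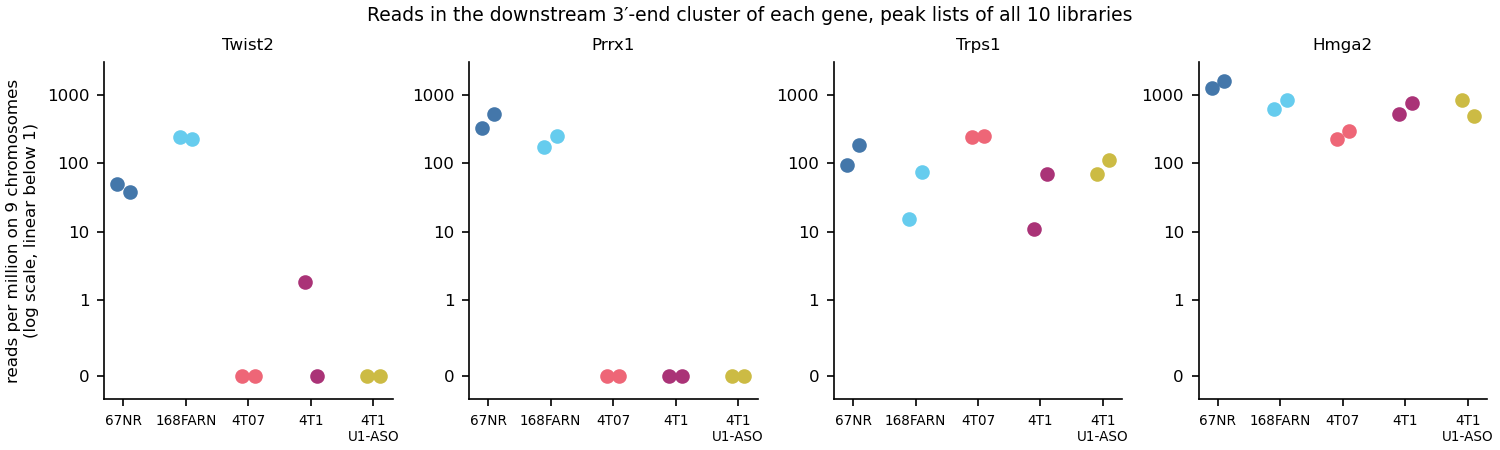
Reads per 1000000 reads (RPM) in the downstream 3′-end cluster of each gene in the peak lists of 10 libraries, on a log axis that is linear below 1; each point is a library. Twist2 and Prrx1 are at or near 0 in 4T07, 4T1 and 4T1-U1-ASO, while Trps1 and Hmga2 have reads in every library.

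The sites most like the members across lines were looked for among 45 sites with values in all 4 lines. For the log2 ratio of site to last exon, Snrnp35, AI506816 and Twist2 were most like the upstream Trps1 site, with Pearson r of 0.99, 0.99 and 0.97 over 4 line means. Trps1, Snrnp35 and Padi2 were most like Twist2 (r of 0.97, 0.97 and 0.96). For last-exon reads alone, Nav2, AI506816 and Snrnp35 were most like Twist2 (r of 0.92, 0.80 and 0.77), and Prickle2, 4931406C07Rik and Auh most like Trps1 (r of 0.97, 0.93 and 0.92). So Twist2 and Trps1 resembled each other in usage and not in their last-exon reads. These values describe 4 points that share libraries, and sites low in both non-metastatic lines are bound to score high.

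Other regulators were counted in a list of 55 genes of mesenchymal transcription and chromatin control. Against 67NR, and in 4T1 against 168FARN, no listed member of it lay outside the 4 genes. In 4T07 against 168FARN, Tead1 and Wwtr1, the DNA-binding partner and the coactivator of Hippo signalling, were listed with lower usage in the authors' deposited table (log2 fold change -1.89 and -1.52, adjusted p = 0.006 and 0.064). At the last exon of Wwtr1, 4T07 had 1515 and 1775 reads and 168FARN had 422 and 526, with 3 and 5 site reads against 4 and 6. Its row, like that of Twist2, held a large difference in last-exon reads, in the opposite direction.

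In 4T1-U1-ASO against 4T1 the further regulators were Yap1, Kdm1a, Hdac2 and Ezh2, all with higher usage, the direction of 87.6% of listed sites. Yap1, the other Hippo coactivator, had the smallest adjusted p of them in the authors' deposited table (log2 fold change 2.88, adjusted p = 0.003). Kdm1a is a histone demethylase, and its site of smallest adjusted p was used at 23.7% ± 5.10 with the morpholino and 6.82% ± 1.29 in 4T1 (SD, n = 2). Hdac2, a histone deacetylase, had 138 and 116 site reads with the morpholino and 33 and 63 without. Usage at these sites of Kdm1a was many times that of the 3 Hmga2 sites.

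Of 30 effector genes of the mesenchymal state, Axl and Sparc were listed between lines, with lower usage in 4T07, and Fn1 and Vim in 4T1-U1-ASO, with higher usage. Reads at the last exon of Axl, a receptor tyrosine kinase, were 2897 and 3115 in 4T07, 3555 and 3342 in 168FARN and 4164 and 3388 in 67NR. Sparc, a matrix glycoprotein, had 6833 and 7185 in 4T07 and 17022 and 15108 in 67NR. Vim, the intermediate filament of mesenchymal cells, had 12512 and 13028 in 4T1 and fewer with the morpholino, 3017 and 2772. Axl and Sparc last-exon reads were thus many in 4T07, where Twist2 had none. Those of Sparc were fewer in 4T07 than in 67NR, the direction also seen for Twist2. Vim last-exon reads were many in 4T1, where Twist2 had 2 and 0. The epithelial marker Cdh1, listed in the same comparison as Vim, had 800 and 952 in 4T1.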

How the data were processed

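Polyadenylated 3′ ends were measured in 10 libraries. The deposited comparison tables hold, per the file headers, the authors' log2 fold change, standard error, test score, p-value and adjusted p-value for each listed site, and a normalized read signal per library for site and last exon; listed sites have an adjusted p of at most 0.1. The deposited peak lists hold a whole-number read count per peak. Per the submitters' processing notes, the build was mm9 and the tools included DESeq2 1.4.5 and Bowtie2 2.2.5, beside bedtools 2.17.0 and SAMtools 1.1, without their roles. Neither the annotation nor the filter on peaks is given in the sources used here.

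In each column the value of 1 read was found; 100% of values were then whole numbers to within 0.1 read. Recovered reads were equal between tables at 479 of 484 site values and 494 of 542 last-exon values; for the 4 genes all 20 site and 18 last-exon values were equal. Changes are the first-named group minus the second; for tables against 67NR the deposited sign was reversed. The test for site and last-exon reads was that of edgeR 4.0.16, run in R 4.3.3 (quasi-likelihood, the authors' scaling, at least 5 reads in 4 libraries, Benjamini-Hochberg over listed sites) and checked on simulated data. In the model of site relative to last exon 100.0% of listed sites passed, so its calls are not read or counted. The sites were selected by the authors, so these p-values are not independent evidence. DESeq2 1.42.0, TMM scaling, other read minimums, blocks and left-out libraries were alternatives. With 2 libraries in a group, usage was described with no test of its own.

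Peaks on the same strand overlapping a site by 1 bp or more were summed. Downstream clusters are the strongest same-strand peaks within 100000 bp downstream, joined over gaps of up to 1000 bp; they, and the scaling to 9 chromosomes, were chosen after seeing the data. All rows of the 4 genes are reported; genes most alike and list members with the smallest adjusted p are named. The members and lists were chosen with earlier results of these data known. Sequence at the sites was not analysed here.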

Additional observations from a re-analysis of the deposited data

Results flagged for a closer look

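Trps1 last-exon reads moved apart in the metastatic lines. Against 67NR, both 4T07 libraries lay above both 67NR libraries in normalized values (log2 ratio 0.68) and both 4T1 libraries lay below them (log2 ratio -1.44). The difference between these changes was not tested, and the comparisons share the 67NR libraries.

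The downstream Trps1 site had peak-list reads in both 4T1-U1-ASO libraries, 10 and 13, with a mean of 9.81 reads per 1000000 reads of the 9 chromosomes complete in all lists, though no table lists it for that comparison. The lists gave 0 in both 4T1 libraries, for which the tables hold 1 and 6 reads. At the upstream Trps1 site the lists gave 39 and 2 reads in 4T1-U1-ASO and 3 and 6 in 4T1, where the tables hold 8 and 43. In 4T1 the lists thus held fewer reads than the tables at both sites. Whether either site differed with the morpholino was not tested.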

How the results depend on the processing

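The count of site-read calls moved from 11 of 16 to 7 with DESeq2, and the count of deposited sites from 17 to 12 at an adjusted p of at most 0.05 and to 6 at 0.01. Leaving out 1 library gave 8 to 12 calls for site reads and 9 to 10 for last-exon reads (9 of 12 with all libraries). Over single sites and settings, 209 values of site or last-exon reads alone kept their direction and side of the threshold, 22 lost and 15 gained a call, and 4 turned sign, none of them called. These were Twist2 site reads in 4T1 against 168FARN without 168FARN replicate 2 (log2 -0.17) or 4T1 replicate 2 (-0.21) and up to 0.43 without 168FARN replicate 1, and Trps1 last-exon reads in the same comparison without 168FARN replicate 1 (-0.23) or 4T1 replicate 2 (-0.67) and up to 0.61 without 4T1 replicate 1, against 0.11 and 0.13 with all libraries. Their cause was not tested.

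Replicate numbers did not pair the samples: deviations of same-numbered libraries correlated at -0.03 to 0.17 with 2 pairs a comparison. With a replicate block, 10 of 16 site-read tests and 10 of 12 last-exon tests passed. In edgeR that fit lost the calls on site reads of Twist2 in 4T07 against 168FARN (adjusted p = 0.0815) and of the 81.8 kb Hmga2 site with the morpholino (0.0556). It gained those on the upstream Trps1 site in 4T1 against 168FARN (2.18e-11) and on Trps1 last-exon reads in 4T07 against 67NR (0.0234). Peak levels at 12 of 45 site and group means moved by more than their spread when scaled to the whole list, which for 67NR replicate 2 is incomplete; requiring 50% of a peak inside the site moved none of the 45. Raw peak reads are given in the text. Sites under about 10 reads (Twist2, Prrx1, the 77.3 kb Hmga2 site) limit what can be seen of change at the site.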
